A study of Mytilus galloprovincialis with 16 samples.

Results

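On a cDNA array of mussel transcripts, 61 of the clones printed in duplicate on 3840 spots were selected on the measured ratios. They were taken as highest at the ripe stage of the female gonad (stage 3) relative to both neighbouring stages. No gene description was linked to them. The clones were chosen by the authors' mean log2 ratios, which had to reach 0.5 or more at stage 3 against stage 2 and -0.3 or less at stage 4 against stage 3. Of the 107 clones past both thresholds, 35 with a description and 11 listed only as the mitochondrial genome were set aside. The 35 include mitochondrially encoded genes such as cytochrome b. Of the 61 that remained, 28 were paired with a row of the study's list of changed genes (27 with an EMBL identifier and 1 without), and 33 were not paired with any row. Because stage 3 against stage 2 and stage 4 against stage 3 chose the members, their values on those arrays are a description and carry no test.

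The study followed Mytilus galloprovincialis, the Mediterranean mussel, through gonad maturation with total RNA from the mantle of single females from the Bizerta Lagoon: early gonads collected in November (stage 1), developing ones in January (stage 2), ripe ones in February (stage 3) and spawning ones in March (stage 4). No agent was given, and the animals came from the field, so the stage and the month cannot be told apart. Dual-colour arrays set pairs of stages against each other in a loop, with 4 arrays each for the steps written below as 2/1, 3/2, 4/3 and 4/1 (later over earlier stage), and with the dyes exchanged on 2 of each 4. The age of the animals and which animal was put on which array are not given in the labels, so all errors describe the spread between arrays, and 1 animal may have served on several. Replicate 4 of stage 3 against stage 2 carries a stage label that differs from its title and month, and replicate 3 of that comparison carries a source name with a January of another year; both were used as titled.

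In mussels the mantle houses the gonad, and in a ripening female its lobes fill with growing oocytes set among storage and connective tissue. An oocyte stores maternal transcripts, yolk, cortical granules and many mitochondria for the embryo. Ripening therefore alters both the cell make-up of the mantle and the transcripts within its cells, and in such bulk RNA fewer cells of a type and less RNA per cell cannot be told apart. Each clone on the array represents the 3' end of a transcript from an expressed sequence tag collection. For the 27 members with an EMBL identifier, the study's annotation gave no gene name. The 33 members not paired and the 1 without an identifier were not looked up in it, so whether they have a gene name is not known.

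All values below are log2 ratios of the later over the earlier stage, computed from the scanner intensities, with the mean of 4 arrays and its SD unless another source is named. On this scale a value of 1 is a doubling. By signal, each member lay above the 95th percentile of the empty spots in at least 29 of its 32 channels. In every channel 31 of them (50.8%) did so, against 29.4% of all genes. Duplicate spots differed by a median of 0.135 for members and 0.155 for all genes. Between arrays the members were more spread, with a median SD of 0.31 against 0.21 at 3/2 and 0.44 against 0.33 at 4/1. At 2/1 it was 0.22 against 0.20, and at 4/3 0.25 against 0.17. An SD over 1 at 4/1 was found for 9 members (14.8%) and 4.95% of all genes. Across arrays, 72% to 92.7% of genes were above the empty spots in a channel, apart from the first replicate of 4/1, whose stage 1 channel had 46.7%. Of the 256 print blocks of all arrays, 2 were near background in both channels, with 10% or fewer of their clones above the empty spots, where each other block had at least 57.5% in one channel. They were block 4 on replicate 4 of 3/2 and block 6 on replicate 1 of 2/1. Block 4 held 7 members, none of them paired, and on that array their ratios lay between -0.25 and 0.09, against means of 0.75 to 2.10 over the other 3 arrays. Block 6 held 3 members, at 0.00 to 0.03 on its array. With both blocks left out, an alternative chosen after seeing the data, the same 61 clones met the rule, and the calls and medians of the members at 2/1 and 4/1 given below were the same in number and value. Markers of the gonad and of another organ were both measured. The 3 egg and germ line clones (2 vitelline envelope proteins with a zona pellucida domain and a P-granule protein) were above the empty spots in all 32 channels, and their median changes were -1.41 (from -1.71 to -0.36) at 2/1, 1.67 (from 1.09 to 2.16) at 3/2, 0.24 (from -0.56 to 1.46) at 4/3 and -1.63 (from -2.06 to 0.09) at 4/1. The 8 digestive gland clones, mostly chitinases, were above the empty spots in 30 to 32 channels, and their medians in that order were 0.96 (from -1.47 to 1.11), -2.0 (from -2.99 to 1.47), -0.18 (from -0.42 to 0.01) and -2.27 (from -3.05 to 0.33). Medians of the 3 sperm and cilia clones were -0.03, 0.80, -0.46 and 0.34, the 1 muscle clone (unc-89) gave -0.58, 1.24, -0.14 and -0.31, and the 1 byssus clone (foot protein-6) gave -0.15, 1.77, -0.60 and 0.25. These lists held only clones paired with the study's list of changed genes, so other clones of these kinds on the array are not covered. That the lists moved with the stages therefore follows in part from how they were made. Their part in the members' values was not tested.

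From stage 2 to stage 3 the 61 members had a median log2 ratio of 1.08 (from 0.46 to 2.95), and from stage 3 to stage 4 a median of -0.48 (from -1.36 to -0.26). The rise was larger than the decline in the middle of the set, but the thresholds that chose them were unlike (0.5 and -0.3). Over all genes the quartiles were also wider at 3/2 (-0.17 to 0.27) than at 4/3 (-0.12 to 0.09). Over all genes on the array, 289 (15.1%) reached the first threshold and 203 (10.6%) the second. On the 4 arrays of stage 3 against stage 2, the median of the members was 1.20, 1.35, 1.31 and 1.04, and 50 of 61 were above 0 on all 4, with the members of block 4 near 0 on the fourth array. On those of stage 4 against stage 3 it was -0.56, -0.32, -0.53 and -0.43, and 49 of 61 were below 0 on all 4. Paired members lay further from 0 at the first step, with a median of 1.68 against 0.95 for those not paired, which include all the members of block 4. The study's list of changed genes was itself called from these arrays, so this gap is not independent of how the list was made. Leaving out any 1 of the 8 arrays that chose them, 34 of the 61 met the rule every time.

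**Figure D1:**
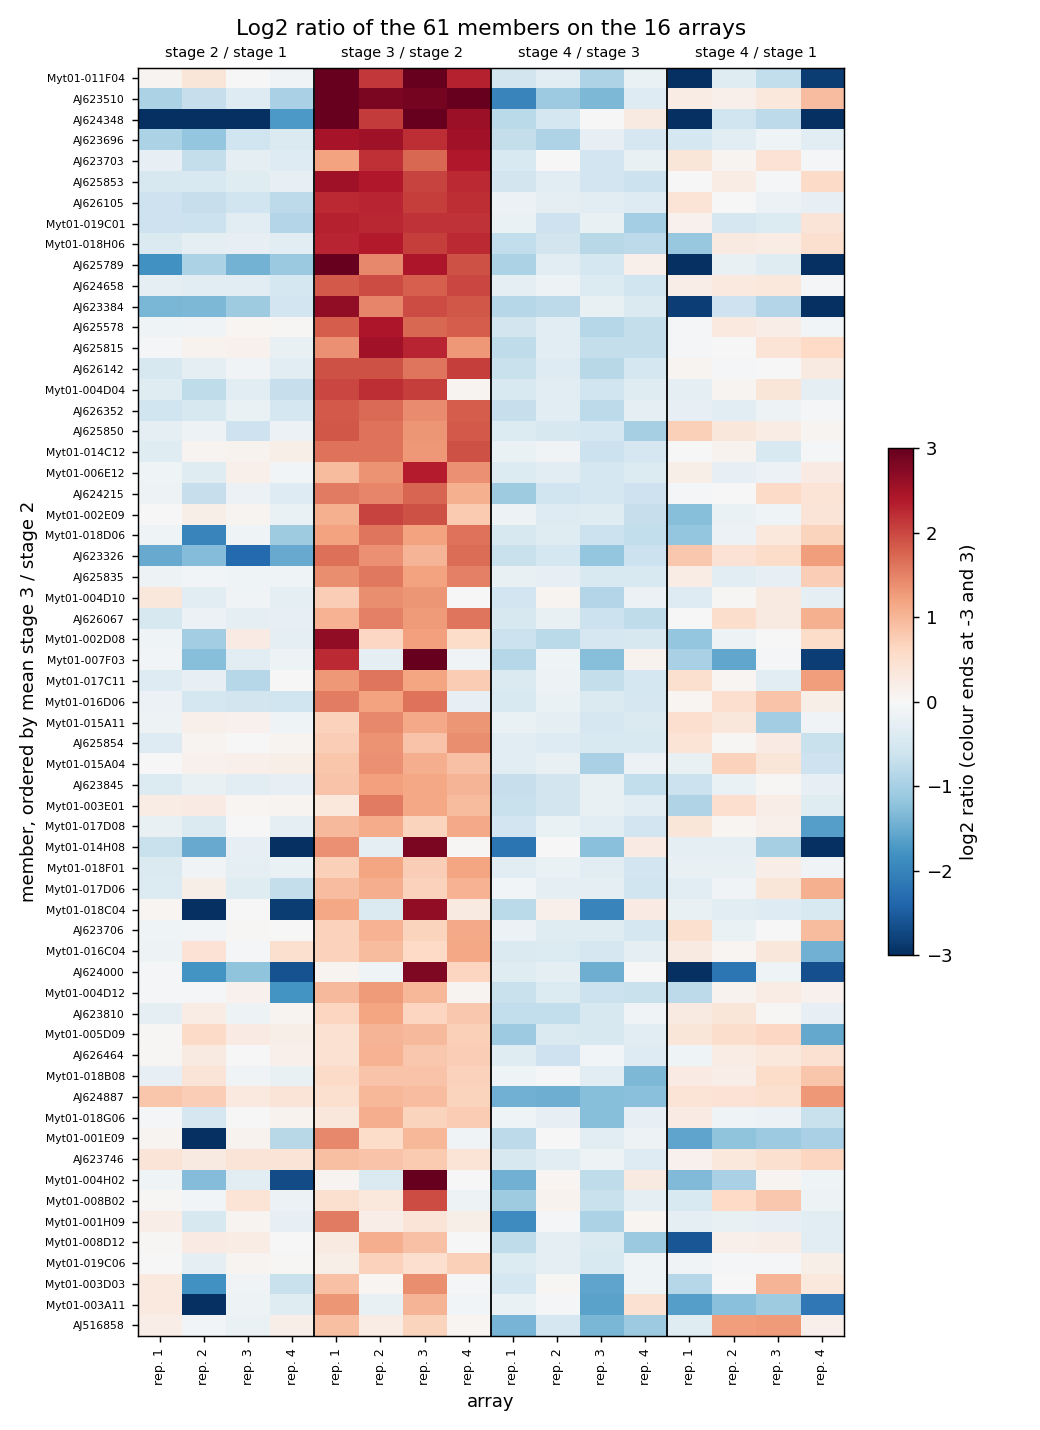
Log2 ratio of each of the 61 members (rows, ordered by the authors' mean at stage 3 against stage 2) on the 16 arrays (columns, 4 per comparison); red is higher at the later stage, blue lower, and colours end at -3 and 3. The block of stage 3 against stage 2 is red for most members on all 4 arrays and the block of stage 4 against stage 3 pale blue, by the choice of the members, whereas the outer blocks differ from member to member.

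AJ623510 (clone Myt01-005A10) was among the most changed at both steps. Its ratios at stage 3 against stage 2 were 3.08, 2.82, 2.87 and 2.99, a mean of 2.94 ± 0.12 (SD, n = 4), so the 4 arrays lay close together. At stage 4 against stage 3 they were -1.99, -1.08, -1.34 and -0.38 (mean -1.20 ± 0.67), all below 0 but far more spread. AJ623696 (clone Myt01-006A06) gave 2.48, 2.55, 2.21 and 2.52 at the first step and -0.73, -0.92, -0.24 and -0.50 at the second. AJ625853 (clone Myt01-016C11) gave 2.54, 2.40, 2.03 and 2.24, then -0.56, -0.32, -0.57 and -0.63. Both genes kept one direction on all 4 arrays of each step. AJ623703 (clone Myt01-006A11) was more variable, with 1.22, 2.18, 1.73 and 2.40, then -0.46, -0.01, -0.58 and -0.23. Of the members not paired with the list, Myt01-018H06 gave 2.28, 2.37, 2.08 and 2.23, then -0.74, -0.56, -0.83 and -0.79. Its 4 values at each step lay within 0.3 of each other.

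AJ624887 (clone Myt01-011E01) had the lowest mean at stage 4 against stage 3 and only a moderate rise before it. Its ratios were 0.48, 0.99, 0.92 and 0.67 at stage 3 against stage 2 (mean 0.76 ± 0.23) and -1.45, -1.47, -1.28 and -1.26 at stage 4 against stage 3 (mean -1.36 ± 0.11). AJ516858 (clone Myt01-003H11) combined a small rise (0.91, 0.21, 0.67 and 0.07) with a large decline (-1.39, -0.50, -1.38 and -1.10). The remaining members with a low mean differed in spread. Myt01-014H08 gave -2.20, -0.02, -1.26 and 0.25, and AJ623326 (clone Myt01-004C08) gave -0.67, -0.52, -1.16 and -0.66. The latter stayed below 0 on every array, the former did not.

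For 3 of the 27 members with an EMBL identifier, the study's annotation gave a function class or a protein domain without naming a gene. AJ624215 (clone Myt01-008B05) carries a ubiquitin domain and a RING finger, modules found in enzymes that attach ubiquitin to other proteins. Its annotation also lists a further domain, transcription factor activity, zinc ion binding and the nucleus, so it does not settle on 1 function. The ratios of AJ624215 were 1.55, 1.46, 1.75 and 1.08 at stage 3 against stage 2, then -1.07, -0.61, -0.52 and -0.63. AJ625815 (clone Myt01-016B01) has a class II aminotransferase domain, which moves amino groups or acyl groups with the help of pyridoxal phosphate. Its first step was 1.37, 2.52, 2.29 and 1.30, wider than that of AJ624215, and its second -0.77, -0.34, -0.70 and -0.71. AJ625854 (clone Myt01-016C12) holds a ZZ-type zinc finger and a LIM domain, both zinc-bound folds that hold proteins together. It gave 0.73, 1.35, 0.86 and 1.39, then -0.34, -0.40, -0.46 and -0.45. On the arrays that held stage 1, their means were -0.35, -0.01 and -0.05 at 2/1 and 0.23, 0.25 and 0.01 at 4/1, none past the threshold. AJ624215 was below 0 on all 4 arrays of 2/1, at -0.14, -0.69, -0.18 and -0.39 (limma adjusted p = 0.0978).

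Beside the thresholds, the 3 members just inside 0.5 had authors' means of 0.52 (AJ516858), 0.52 (Myt01-003A11) and 0.54 (Myt01-003D03), and the 3 genes just outside had 0.46 to 0.50. At -0.3 the members just inside were Myt01-017D06, AJ625835 and Myt01-019C06 (-0.31, -0.32 and -0.32), and genes just outside it lay between -0.30 and -0.28. Several of these neighbours had large spread: Myt01-003D03 gave 0.88, 0.07, 1.38 and -0.04 at stage 3 against stage 2, so the arrays straddled 0.

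The 2/1 and 4/1 comparisons were measured on arrays that the rule did not use, and these were tested. The labels do not say whether the stage 2 or stage 4 animals on them were also on the arrays that chose the members, and an animal that was low at stage 2 could then enter both. At stage 2 against stage 1, the median of the members was -0.30 and that of all genes -0.03. By array it was -0.15, -0.27, -0.12 and -0.24, below 0 each time. At stage 4 against stage 1 it was -0.04 for the members and -0.09 for all genes, with array medians of -0.13, 0.01, 0.14 and -0.06, on both sides of 0.

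**Figure D2:**
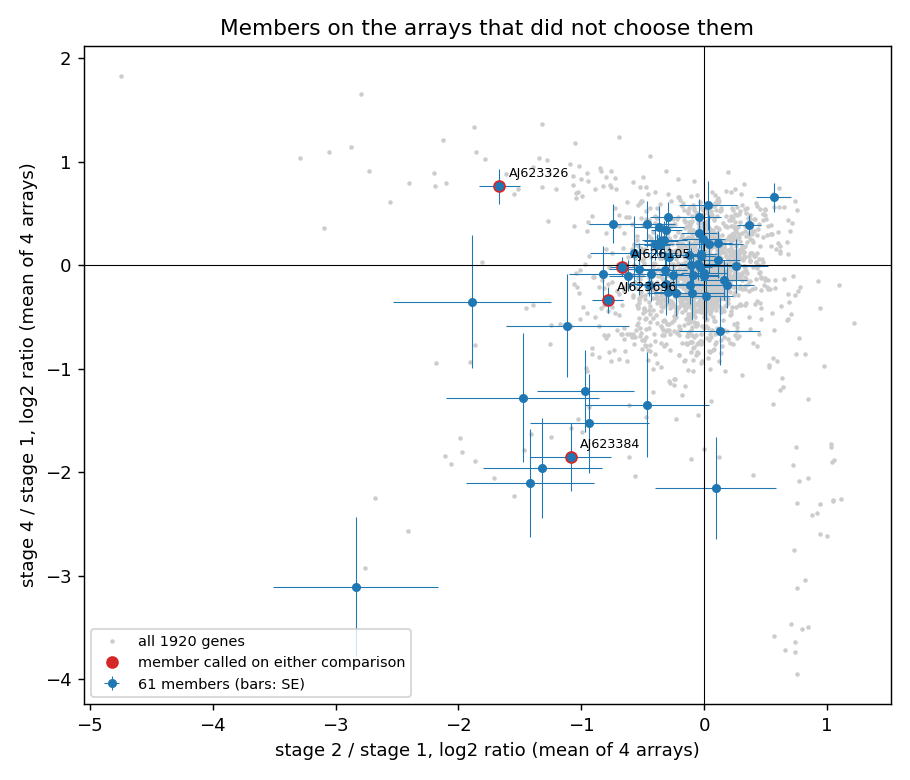
Mean log2 ratio at stage 2 against stage 1 (horizontal) and at stage 4 against stage 1 (vertical) for all genes on the array (grey) and the 61 members (blue, bars are SE of the fit); red rings mark the 4 members called on either comparison. Most members lie left of 0 and close to 0 in height, with 49 of 61 below 0 at stage 2 against stage 1.

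A gene was called where the Benjamini-Hochberg adjusted p of limma's test over all genes on the array was under 0.05 and the log odds of change, B, above 0. At stage 2 against stage 1, 3 members (4.92%) were called lower and 0 higher, where over all genes 4.64% were called lower and 1.88% higher. In this fit, the share of members called lower was near the background. With duplicate spots kept separate it was 16.4% against 6.88% of all genes, so the distance from the background depended on the fit. With the loop fit it was 14.8% against 4.48%. That fit draws on the 3/2 and 4/3 arrays that chose the members, so its share is not independent of the choice. With the adjusted p alone, 10 members (16.4%) were lower and 2 (3.28%) higher, against 9.74% and 6.3% of all genes. On all 4 arrays, 28 members (45.9%) were below 0 and 7 (11.5%) above, against 20.4% and 18% of all genes. At an unadjusted p under 0.05, 23 members were lower and 2 higher, against 16.2% and 11.8% of all genes.

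The 3 called lower had risen at 3/2 by the choice of the members. AJ623326 gave -1.51, -1.31, -2.33 and -1.52 at stage 2 against stage 1 (mean -1.67, SE 0.17, limma adjusted p = 7.22e-06), below 0 on all 4 arrays. AJ623696 gave -0.95, -1.17, -0.59 and -0.43 (mean -0.79, SE 0.13, limma adjusted p = 0.000531). AJ626105 (clone Myt01-017F09) gave -0.61, -0.69, -0.60 and -0.77 (mean -0.67, SE 0.09, limma adjusted p = 0.000192), and its 4 values on the next step, 2.24, 2.28, 2.08 and 2.21, were as tight. These genes were lower at stage 2 than at stage 1 and then rose. The call of AJ626105 depended on the processing: its value was 0.04 with arrays centred on their median only and -0.19 with print-tip loess (limma adjusted p = 0.648), and with plain background subtraction (-0.75, limma adjusted p = 0.0231) B was not above 0. With median centring AJ623326 (-1.16) and AJ623696 (-0.73) kept their direction but were not called, nor was AJ623696 when fitted on its own 4 arrays (limma adjusted p = 0.0333). AJ624887 and AJ623746 (clone Myt01-006C09) ran the other way, with 0.83, 0.74, 0.29 and 0.40 for the first and 0.39, 0.27, 0.38 and 0.40 for the second. Both were above 0 on every array with limma adjusted p = 0.0122 and 0.0194, but B was below 0, so they were not called.

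**Figure D3:**
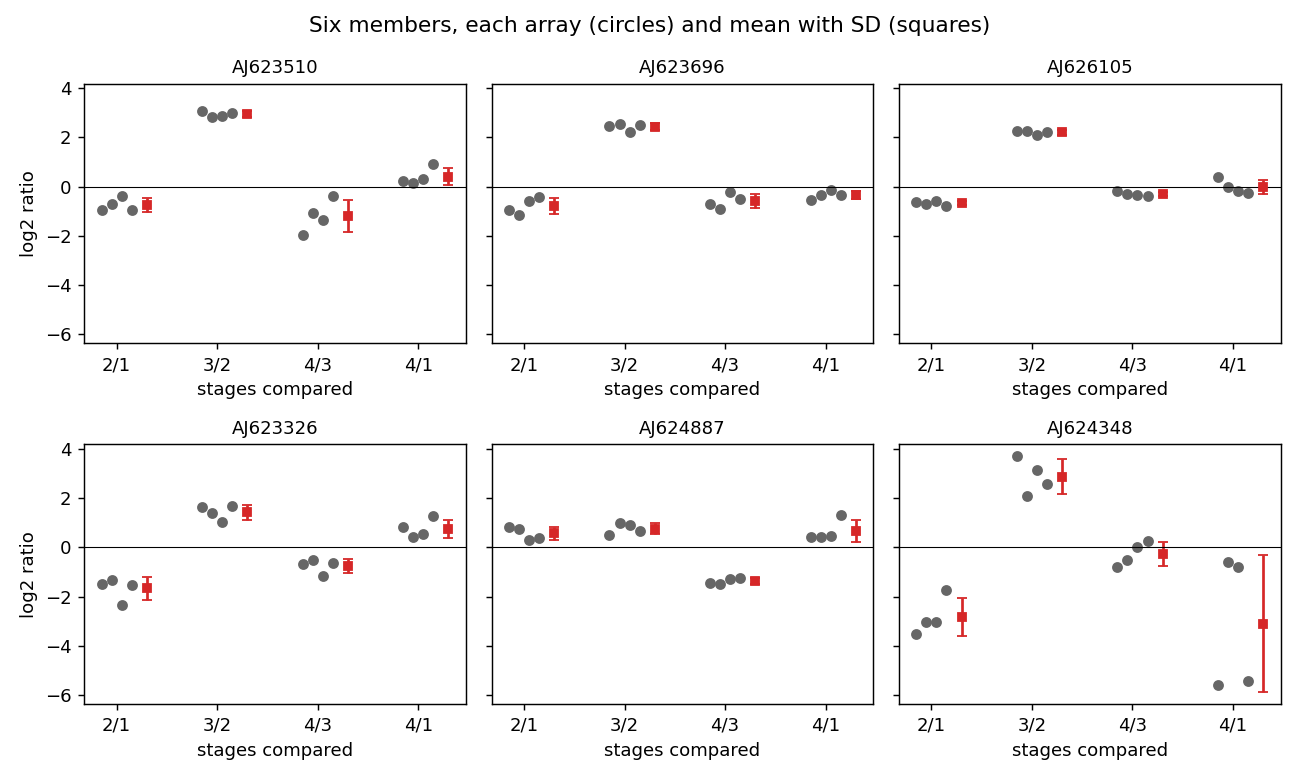
Log2 ratio on each of the 4 arrays (circles) and the mean with SD (squares) for 6 members at the stages compared (2/1, 3/2, 4/3 and 4/1; later stage over earlier). AJ623510, AJ623696, AJ626105 and AJ623326 fall below 0 at 2/1 and lie above 1 at 3/2, AJ624887 is above 0 at both, and AJ624348 spreads from -5.59 to -0.60 at 4/1.

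At stage 4 against stage 1, 1 member was called lower (1.64%) and 0 higher, where over all genes 4.69% were called lower and 2.81% higher. With the adjusted p alone, 7 members (11.5%) were lower and 4 (6.56%) higher, against 14% and 10.1% of all genes. On all 4 arrays, 13 members (21.3%) were below 0 and 8 (13.1%) above, against 22.5% and 13.8%, shares near those of all genes. At an unadjusted p under 0.05, 10 members were lower and 9 higher, against 24.1% and 15.3% of all genes. The member called lower, AJ623384, gave -2.82, -0.62, -0.87 and -3.08 (mean -1.85 ± 1.28, SE 0.33 from the spread in all comparisons, limma adjusted p = 0.000943). Its call did not hold without replicate 1 or replicate 4 (limma adjusted p = 0.00606 and 0.0089, B not above 0). Nor did it hold when fitted on its own 4 arrays (limma adjusted p = 0.127), with array weights (-1.22), with the loop fit (-1.31) or with median centring (-0.90). AJ623326 gave 0.81, 0.43, 0.55 and 1.26 (mean 0.76), so this gene was lower at stage 2 and higher at stage 4 than at stage 1 on every array, though at stage 4 its B of -0.50 left it uncalled.

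Stage 3 was never hybridised against stage 1 directly, but it can be set against it by adding 2/1 to 3/2, or by subtracting 4/3 from 4/1. Both sums contain arrays of the rule and are given as a description. Through stage 2 the median of the members was 0.90 and through stage 4 it was 0.43; 48 of 61 were above 0 by both routes, 5 below 0 by both, and 2 (AJ623510 and AJ624887) above 1 by both. For 13 members stage 3 was therefore not the higher of the pair by at least one route. AJ623326 was -0.23 through stage 2 and 1.51 through stage 4, and AJ624348 (clone Myt01-008G10) 0.04 and -2.84. The routes differed by a median of 0.60 for the members and 0.11 for all genes, and by more than 1 in either direction for 17 members (27.9%) and 13.8% of all genes. Myt01-011F04 had the widest difference, with 3.05 through stage 2 and -1.65 through stage 4.

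**Figure D4:**
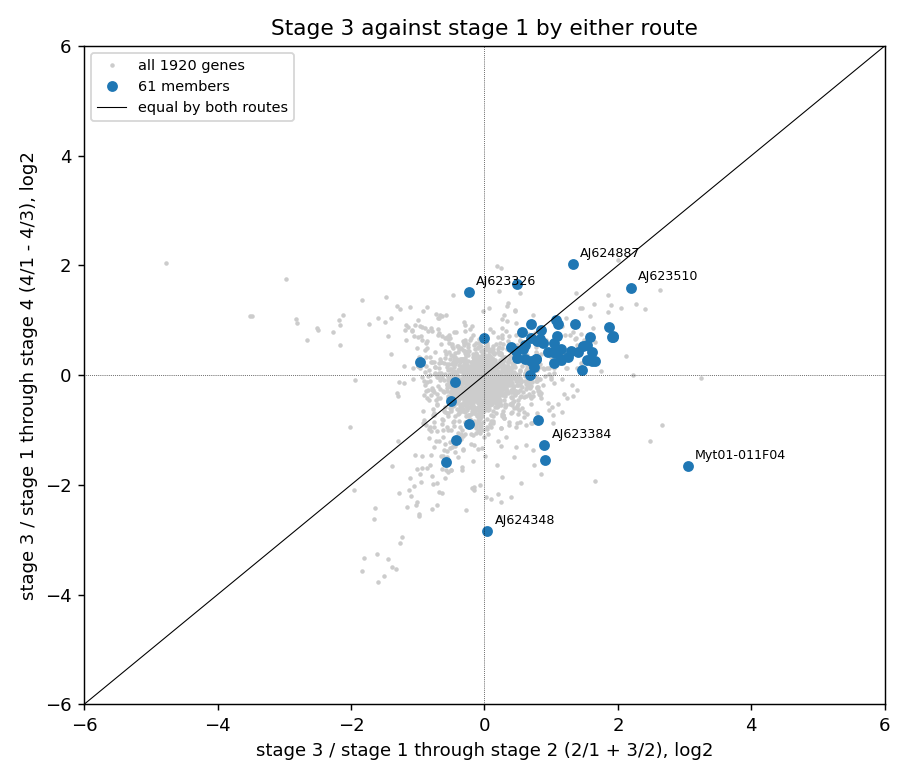
Stage 3 against stage 1 through stage 2 (horizontal) and through stage 4 (vertical), in log2, for all genes on the array (grey) and the 61 members (blue); on the diagonal both routes give the same value. With 51 of 61 route differences above 0, most members lie below the diagonal, and Myt01-011F04 lies furthest from it, at 3.05 and -1.65.

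Some members moved together from array to array. Deviations of each gene from its mean in each comparison were correlated over the 16 arrays (12 free deviations per gene), which share arrays and dyes. Over the 1830 pairs of members the median r was 0.05, and between members and other genes it was 0.00, so most members did not share their deviations. In 12 pairs r was at least 0.85. AJ624348, AJ623384, AJ625789 and Myt01-011F04 were linked by r of 0.80 to 0.98. AJ516858 was also linked to Myt01-011F04 (0.89) and AJ625789 (0.86). At 4/1 AJ516858 gave -0.37, 1.25, 1.29 and 0.14. The gene most like AJ624348 was AJ624131, a described gene named after a protein of the blood fluke Schistosoma japonicum (sjchgc01393), with r = 0.997 and a median absolute difference of 0.08 between their ratios. Other pairs were AJ623706 with AJ625835 (r = 0.94) and AJ626142 with AJ626352 (0.895). Myt01-004D04 and Myt01-016D06 had r = 0.93, but both lie in print block 4, and without the array on which that block was near background r was 0.65.

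At stage 4 against stage 1, AJ624348 gave -5.59, -0.60, -0.79 and -5.44, and AJ625789 (clone Myt01-015H09) gave -4.04, -0.22, -0.36 and -3.20. Myt01-011F04 gave -4.64, -0.37, -0.75 and -2.85. Replicates 1 and 4 were far lower than replicates 2 and 3 for all of them and for AJ623384, and AJ624131 followed with -4.98, -0.82, -0.80 and -5.12. In replicates 1 and 4 stage 4 was labelled with Cy5, in replicates 2 and 3 with Cy3, so for these genes the dye and the animals on the arrays cannot be told apart. For these 4 members, the mean with the later stage in Cy5 less that with it in Cy3 was -4.83 to -2.20 at 4/1, 0.09 to 0.90 at 2/1, -1.48 to -0.64 at 3/2 and -0.65 to 0.07 at 4/3. At stage 2 against stage 1 AJ624348 gave -3.53, -3.04, -3.05 and -1.73.

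**Figure D5:**
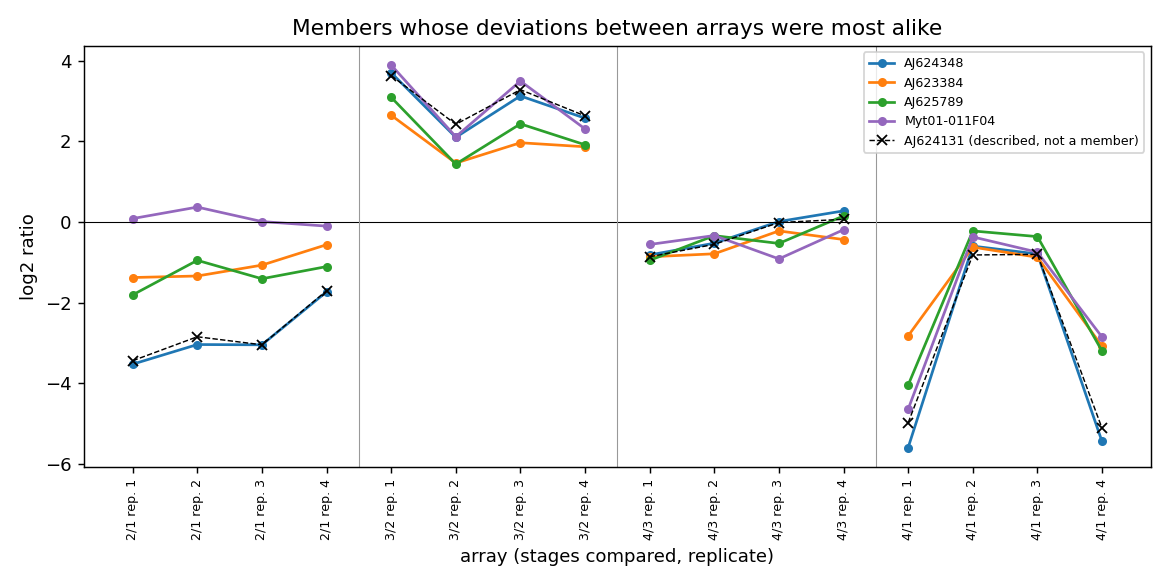
Log2 ratio on each of the 16 arrays (later stage over earlier; 2/1, 3/2, 4/3 and 4/1, replicates 1 to 4) for 4 members and for AJ624131, a described gene that is no member. All 5 drop on replicates 1 and 4 of stage 4 against stage 1, and AJ624348 and AJ624131 nearly coincide.

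The dye orientation also separated other members. For each gene the mean of arrays with the later stage in Cy5 was taken less that of arrays with it in Cy3, averaged over the 4 comparisons. This difference was below -1 for 10 members (16.4%) and for 1.2% of all genes, and above 1 for none of the genes on the array. It was largest for Myt01-014H08 (-1.85) and Myt01-018C04 (-1.84), then Myt01-007F03 (-1.40) and AJ624000 (-1.36). Myt01-018C04 gave 0.05, -4.73, -0.02 and -2.85 at stage 2 against stage 1, where replicates 2 and 4 had stage 2 in Cy5, and 1.15, -0.42, 2.65 and 0.28 at stage 3 against stage 2, where replicates 1 and 3 had stage 2 in Cy5. Stage 2 was thus low where it was labelled with Cy5. At stage 4 against stage 3 this clone gave -0.81, 0.16, -1.99 and 0.24, where replicates 1 and 3 had stage 4 in Cy5, so the pattern was not confined to stage 2. At stage 4 against stage 1 its orientations differed by only 0.03. Among the 28 paired members 3 (10.7%) were below -1, among the 33 not paired 7 (21.2%), and among the 35 described genes past the same thresholds 1 (2.86%). The paired members and the described genes are on the study's list of changed genes and the others are not, so these sets passed unlike filters. Each comparison holds both orientations in equal number, so a dye difference of constant size cancels in the mean. With the rule applied to the arrays of one orientation only, an alternative chosen after seeing the data, 61 clones passed with the later stage in Cy5 (44 of them members) and 51 in Cy3 (43 of them members).

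The decline after stage 3 differed with the normalization. With each array only centred on its median, in place of loess, 56 of the 61 members were at 0.5 or more at stage 3 against stage 2 (median 0.92) but only 17 were at -0.3 or less at stage 4 against stage 3 (median -0.17), and 56 were below 0. Under that centring 18 clones met the rule, 14 of them members, AJ623510 and AJ624215 included. The same centring moved the median at stage 2 against stage 1 from -0.30 to 0.00 and that at stage 4 against stage 1 from -0.04 to 0.19. Over all genes it changed the split of calls from 36 higher and 89 lower to 118 higher and 48 lower at 2/1, and from 54 and 90 to 240 and 60 at 4/1.

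The described genes and mitochondrial clones past the same thresholds had a like profile by the same choice. Their medians were -0.21 and -0.49 at 2/1, 1.74 and 2.30 at 3/2, -0.57 and -0.80 at 4/3, and 0.16 and 0.29 at 4/1. By the authors' means, the described genes highest at stage 3 against stage 2 were cytochrome b (AJ624584, 3.07 from the intensities), cytochrome oxidase subunit I (AJ623880, 2.86) and AJ624131 (2.99). The first 2 encode parts of the respiratory chain and belong to the mitochondrial genome, as does the described NADH dehydrogenase subunit 5 (AJ623584). The described and mitochondrial sets were therefore not separate in kind. AJ623510 lay at the level of these highest described genes, and the difference between the sets was not tested because the rule chose both.

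On the source plates the members were unevenly placed. Of the 20 plates of 96 clones, plates 16 to 18 held 20 members (32.8% of them, against 15.0% of all clones). These plates were picked after the counts were seen. They held 7, 6 and 7 members, but plate 6 also held 7 and plate 4 held 6, and 4 plates held none. Row C of plate 16 held 5, AJ625835, Myt01-016C04, AJ625850, AJ625853 and AJ625854, among its 12 wells. On the slide, by contrast, every one of the 16 print blocks held between 2 and 7 members. Whether plate position bears on the ratios was not tested.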

How the data were processed

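Mantle RNA of single female mussels was labelled with Cy3 and Cy5 and hybridised to 16 two-colour cDNA arrays, 4 for each of 4 comparisons. The authors deposited spot intensities (foreground and local background, from the scanner) and a table of log2 ratios that they made with limma by background correction and loess (its version is not stated). Of 4560 spots per array, 3840 held 1920 clones, 608 were empty and 112 were alignment spots.

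The members were found on the authors' log2 ratios, averaged over the 2 spots of a clone and the 4 arrays of a comparison. Each of the 368 rows of the study's list of changed genes was paired with 1 clone by its stage coefficients, within 0.005. All other values come from the deposited intensities, corrected by normexp (offset 50), normalized by loess with control spots at weight 0 and averaged over duplicate spots, which correlated with the authors' log2 ratios at r = 0.964 to 1. The authors' column medians were -0.04 to 0.02. Loess forces the ratios of an array to centre on 0 at each brightness.

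A limma fit of 1 coefficient per comparison over all 16 arrays (prior share of changed genes 0.01) gave SEs and tests; this departs from the loop fit of the methods, which mixes in the arrays of the rule and is an alternative. R 4.3.3, limma 3.58.1, Python 3.11.15 and pandas 2.3.3 were used. The number of arrays limits the precision. Replicates of a comparison differed by more than duplicate-spot noise (variance ratio 1.39 or more). Alternatives were other background corrections, normalizations, filters and fits, and leaving out each array.

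Named members were those called (up to 6 in each direction), the 6 highest at stage 3 against 2, the 6 lowest at stage 4 against 3, those with a function class or domain, those next to a threshold, and the 3 highest not paired; others in the text were chosen after their values were seen. Marker lists for 5 tissues (egg and germ line, sperm and cilia, muscle, digestive gland, byssus and foot) were matched by description. Only clones paired with the study's list of changed genes could enter them. The members and lists were chosen with earlier results of these data known. Of 27 EMBL identifiers 0 were in the RefSeq gene table, so no sequence is shown.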

Additional observations from a re-analysis of the deposited data

Results flagged for a closer look

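For the 22 members named by rule, the 4 values of each comparison were searched for 1 array far from the other 3 (beyond Dixon's 95% critical value), which chance gives in about 1 of 20 such sets. Of 88 sets, 7 had one (7.95%). AJ624887 was 1.31 on replicate 4 of stage 4 against stage 1, where the nearest other array gave 0.48. Myt01-018H06 was -1.15 on replicate 1 of the same comparison, the array with the dim stage 1 channel, with the nearest at 0.23. Myt01-019C06 was 0.17 on its replicate 4, with the nearest at -0.06. At stage 2 against stage 1 AJ625854 stood apart at -0.40 on replicate 1 (nearest 0.02) and so did Myt01-003A11 at -3.51 on replicate 2 (nearest -0.36). AJ625815 was -0.34 on replicate 2 of stage 4 against stage 3, the others at -0.70 or lower. Myt01-004D04 was 0.09 on replicate 4 of stage 3 against stage 2, the array whose stage label conflicts with its title, and the other 3 arrays gave at least 2.01; its print block 4 was near background on that array in both channels. Without that array 64 clones met the rule, 60 of them members.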

How the results depend on the processing

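At stage 2 against stage 1, the members called higher (0) became 1 with no background correction, print-tip loess, scale normalization, separate spots, the loop fit or array weights, and 2 with median centring or the adjusted p alone; those called lower (3) became 0 with median centring, 10 with separate spots or the adjusted p alone, 9 with the loop fit and 5 with its own 4 arrays. Over all genes, those called lower were 2.5% with median centring, 6.88% with separate spots and 9.74% with the adjusted p alone. They were 4.48% with the loop fit, which draws on the arrays of the rule, and 2.86% with its own 4 arrays. Those called higher were 1.77% to 4.06% of all genes in the settings where 1 member (1.64%) was. They were 6.15% with median centring and 6.3% with the adjusted p alone, against 3.28% of members. The median (-0.30) became -0.17 with no background correction, 0.00 with median centring, -0.19 with print-tip loess and -0.39 with the loop fit. At stage 4 against stage 1, those called higher (0) became 3 with plain subtraction, 12 with median centring, 2 with print-tip loess or separate spots, 1 with the loop fit or the replicate block, and 4 with the adjusted p alone. Those called lower (1) became 2 with plain subtraction, the dim-probe filter or its own 4 arrays, 0 with median centring, the loop fit or array weights, 4 with separate spots, 5 with a dye term and 7 with the adjusted p alone. Over all genes, 12.5% were called higher with median centring and 5.1% with plain subtraction. Print-tip loess gave 2.76% higher, separate spots 5.52%, the loop fit 0.99%, the replicate block 2.55% and the adjusted p alone 10.1%. Called lower were 4.74% with plain subtraction, 5.04% with the dim-probe filter and 1.72% with its own 4 arrays. Median centring gave 3.12% lower, the loop fit 3.23% and array weights 3.33%. Separate spots gave 6.46% lower, a dye term 5.57% and the adjusted p alone 14%. The median (-0.04) became 0.25 with plain subtraction, 0.19 with median centring and 0.14 with the loop fit. AJ626105 reversed with median centring (0.04). Leaving out 1 array gave 0 to 1 higher, 3 to 4 lower and medians of -0.30 to -0.20 at stage 2 against 1, and 0 to 1, 0 to 5 and -0.07 to 0.05 at stage 4 against 1: 0 lower without its replicate 1 or 4, 4 without its replicate 2, 5 without its replicate 3, 3 without replicate 2 of stage 2 against 1. The rule gave 31 members with stricter thresholds, 123 with looser ones, 18 on median-centred ratios, 59 on ratios from the intensities, and 53 to 70 without 1 array. The cause of these changes was not tested. Deviations of same-numbered arrays had r from -0.21 to 0.17, over 0.1 in 4 of 16 pairs. The sign was set so that a shared animal gives r above 0. Pairs of 3/2 with 4/3, which share stage 3, were all above 0 (0.095, 0.165, 0.151 and 0.173). Pairs of 2/1 with 3/2, which share stage 2, were all below 0 (-0.186 to -0.026). Other pairs lay on both sides of 0. Stage 3 had the same dye within each of the former pairs, and stage 2 opposite dyes within each of the latter. A shared animal and the dye therefore cannot be told apart. The replicate block changed no other member call count.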
